A study of Mus musculus with 6 samples.

Results

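The clustered protocadherins are 3 neighbouring groups of cell surface adhesion genes, named alpha, beta and gamma, and their transcripts were measured here in 6 primary cultures of mouse dorsal root ganglia, the sensory ganglia beside the spinal cord. Members were the protein-coding rows of the count table whose symbols name an alpha, beta or gamma protocadherin. This gave 57 genes of 45703, with 14 in the alpha cluster, 22 in the beta cluster and 21 in the gamma cluster, all on the plus strand of chromosome 18 (GRCm38.p6). The cultures came from adult wild-type C57BL/6 mice aged 4 to 6 weeks and had spent 7 days in vitro. Their medium held 10% serum, and the growth factors EGF and FGF were added, each at 10 ng/ml. RNA of each sample came from 2 dishes. All samples formed a single group with no treatment or control, so the comparisons are between members and between replicate cultures. The labels do not say whether each culture came from separate animals, so p-values measure the spread between these 6 samples.

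Clustered protocadherins are known for giving neurons different combinations of surface proteins, through which branches of one cell recognise and avoid each other. In the alpha and gamma clusters each member has its own large variable exon, which encodes the extracellular, transmembrane and near cytoplasmic parts, and this exon is spliced to a set of constant exons used by the whole cluster. Beta members have no constant exons. The C-type members, Pcdhac1, Pcdhac2, Pcdhgc3, Pcdhgc4 and Pcdhgc5, lie at the downstream ends of the alpha and gamma clusters and are known to be expressed less randomly than the rest. A bulk culture averages over its cells, so the combination in a single cell is not seen, and fewer cells of a type and less RNA per cell cannot be told apart.

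The libraries held 20070639 to 22968642 counts, of which 21217 to 28066 fell in the family, or 0.113% ± 0.00701 of all counts (SD, n = 6). Each of the 8 fibroblast, 8 glial lineage and 12 neuron marker genes reached 1 CPM (counts scaled to a library total of 1000000) in all cultures, so all 3 cell classes were represented. Culture 5 stood apart by its fibroblast markers, whose summed level was 14203 CPM there and 3344 to 7525 CPM in the other cultures. Of the 57 members, 56 reached 1 CPM in all 6 cultures. Pcdhb1 had 0 counts in every culture, which allows up to 0.131 CPM in the largest and 0.149 CPM in the smallest library (3 counts per library, for counting error only).

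The constant exons matter for every level given below. In the GENCODE M21 annotation of GRCm38, the 21 gamma members share 3 exon blocks of 59, 89 and 1968 bases, the first at 37825021 to 37825079 and the last at 37839903 to 37841870. The 13 alpha members listed there share blocks of 59, 89 and 2712 bases, the first at 37156155 to 37156213 and the last at 37184946 to 37187657. No base was exonic in all beta members. A read in a constant exon cannot be given to a single member, and how the authors' counting treated such reads is not given in the sources used here.

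Many of the deposited counts were not whole numbers. All 84 alpha values and all 126 gamma values (members by cultures) were fractional, with a tolerance of 0.005. Of the 132 beta values 63.6% were fractional, and of the values of all 14998 genes kept by the low-count filter 29.4% were. Within a culture, 14 to 18 of the 21 gamma members had the same digits after the decimal point. Their pairwise differences were multiples of 0.5 (tolerance 0.015) in at least 73.3% of 210 pairs in every culture, against 9.89% to 52.7% of 91 alpha pairs and 19.0% to 67.5% of 231 beta pairs. Thus gamma members mostly differed by multiples of 0.5 reads on top of a common fractional part.

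If 1 shared part was divided evenly over all members, it cannot be larger than the count of the lowest member. Counts above the lowest member are then a minimum of what a member has of its own. Alpha members had 5 to 11 different fractional parts within a culture and gamma members 2 to 4. Alpha counts above the lowest member were often fractional too, as 4.14 for Pcdha2 in culture 2. They may thus still hold reads divided among some members, so for alpha the minimum is less sure. Pcdhgc4 was the lowest gamma member in all 6 cultures, with 378 to 481 counts. That level taken 21 times made up 47.2% ± 0.890 of the gamma counts. Per kilobase of exon it gave 1.09 ± 0.0388 times the reads that the gamma members had above it on their own exons. In the alpha cluster Pcdha8 was lowest in 5 cultures and Pcdha7 in culture 4. The lowest level taken 14 times made up 61.8% ± 2.40 of the alpha counts, and the matching ratio per kilobase was 1.56 ± 0.144 (SD, n = 6 for each). Levels close to those of Pcdhgc4 or Pcdha8 cannot be told apart from a shared part.

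**Figure D1:**
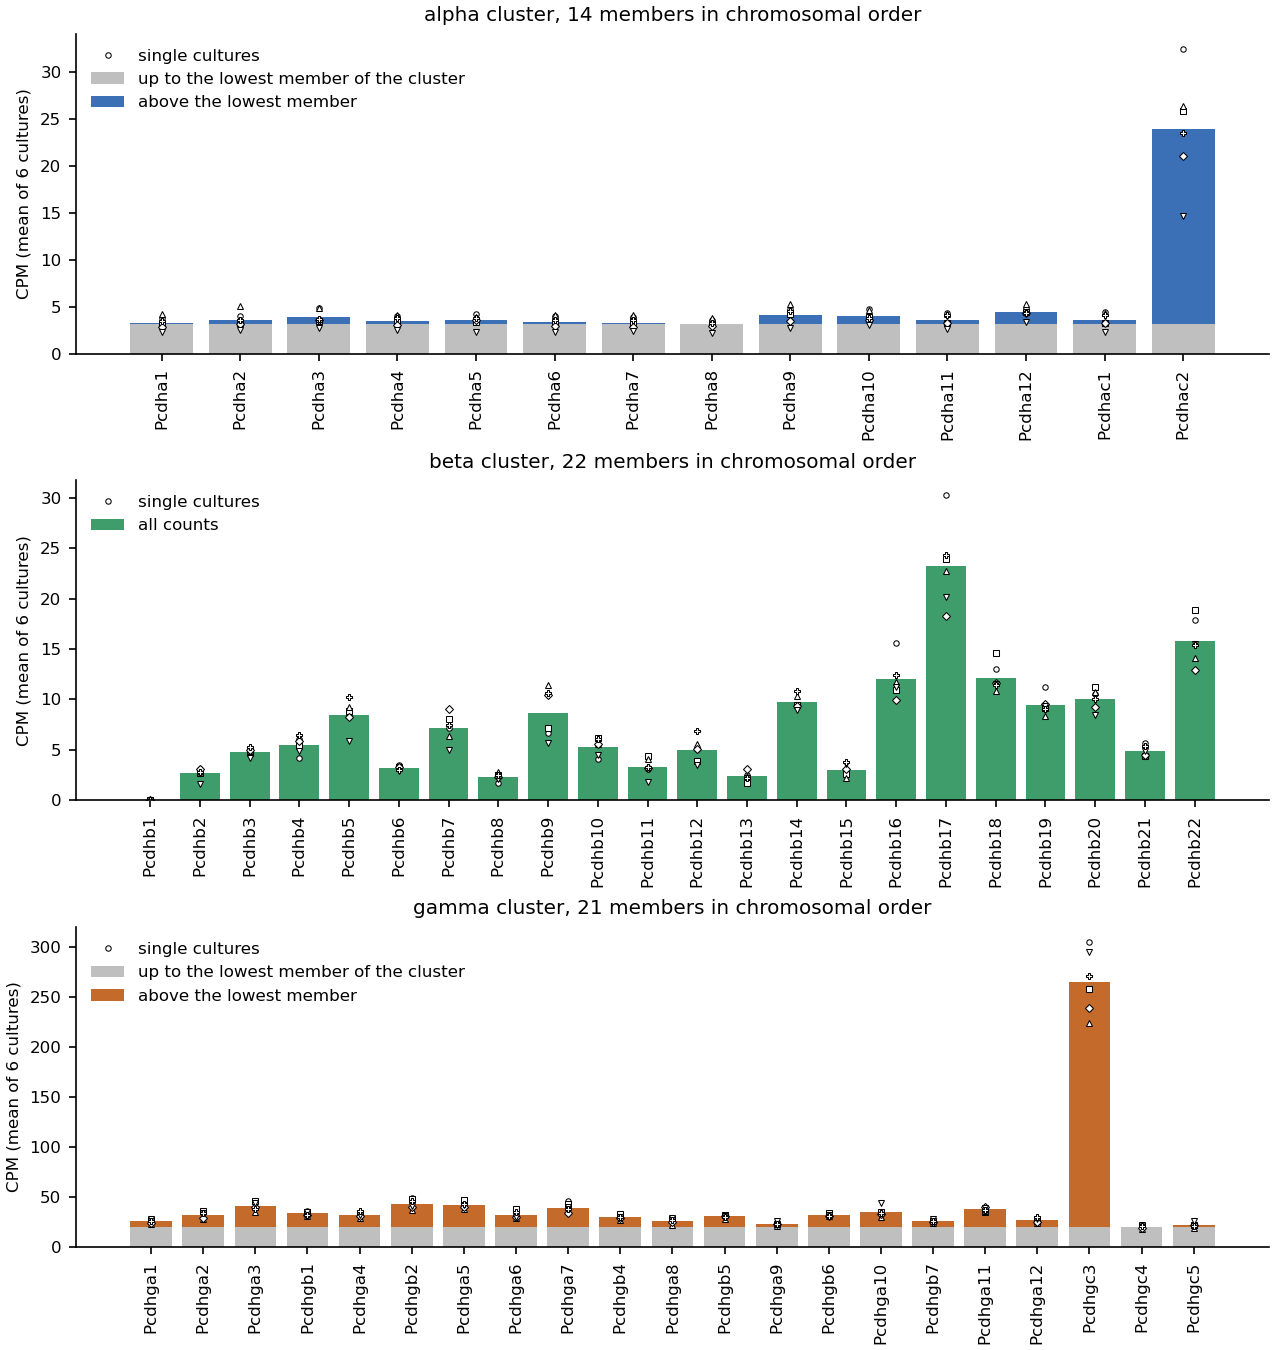
Mean CPM of each clustered protocadherin over 6 cultures (bars) with single cultures as points, in chromosomal order. Grey marks the part up to the lowest member of the alpha or gamma cluster, which is all of Pcdhgc4, and Pcdhac2 and Pcdhgc3 stand out above it at 24.0 and 265 CPM.

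By summed counts the gamma cluster was the largest part of the family. It took 895.5 ± 68.7 CPM, the beta cluster 159 ± 12.2 CPM and the alpha cluster 71.6 ± 14.4 CPM (SD, n = 6). The order gamma, beta, alpha held in all 6 cultures. Gamma counts were 4.92 to 6.91 times beta counts and beta counts 1.89 to 2.85 times alpha counts within a culture. Without the level of the lowest member, gamma kept 473 ± 37.0 CPM and alpha 27.6 ± 6.71 CPM, and the order was the same. These sums are not per length, so they describe reads and not molecules.

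Pcdhgc3, a C-type member (chromosome 18, 37806410 to 37841873), led the gamma cluster and the whole family. Its level was 305, 257, 224, 239, 295 and 271 CPM in cultures 1 to 6. It was highest in cultures 1 and 5 and lowest in culture 3, and its lowest culture lay far above the highest culture of any other member. Per kilobase of combined exon it averaged 56.6 ± 6.70 CPM, at percentile 92.7 of the mean levels of the 14998 genes tested. Of the gamma counts above the lowest member it held 51.7% ± 2.78, in a range from 49.0% to 55.3%, while its share of gamma counts as deposited was 29.5% ± 1.51 (SD, n = 6 for each). Per kilobase of its own exon it stood at 95.3 ± 11.7 CPM above the lowest member, 10.5 ± 1.95 times the next member, Pcdhgb2 (SD, n = 6).

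The other C-type gamma members lay at the bottom of the cluster. Pcdhgc4 (37815079 to 37841873) had 21.0, 20.9, 17.6, 18.8, 21.9 and 20.6 CPM in cultures 1 to 6 and sets the lowest level itself, so no count of its own could be shown. Pcdhgc5 (37819546 to 37841873) had 21.7, 21.5, 19.1, 21.7, 26.2 and 20.7 CPM, highest in culture 5. Its level above Pcdhgc4 was 1.68 ± 1.64 CPM (SD, n = 6), so its spread was about as large as the level. Of the C-type gamma members, 1 of 3 thus stood clearly above the common level.

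Gamma A and gamma B members, the alternately placed variable genes of the cluster, spanned a narrow range next to Pcdhgc3. Together the 12 gamma A members had 393 ± 26.2 CPM and the 6 gamma B members 195 ± 11.8 CPM. The highest gamma B member was Pcdhgb2 (37689859 to 37841872), at 49.0, 47.4, 37.0, 40.0, 40.6 and 46.3 CPM in cultures 1 to 6, high in cultures 1, 2 and 6. In that group Pcdhgb1 (37680272 to 37841870) followed with 35.8, 34.8, 30.6, 32.1, 35.1 and 32.1 CPM, all below the lowest culture of Pcdhgb2. Pcdhgb6 (37742094 to 37841873) was close behind, with 33.4, 33.6, 30.7, 30.7, 32.0 and 31.2 CPM, and overlapped Pcdhgb1.

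Among gamma A members Pcdhga5 (37694375 to 37841870) had 44.3, 46.6, 38.0, 39.6, 41.6 and 42.5 CPM in cultures 1 to 6. Pcdhga3 (37674335 to 37841873) had 44.3, 45.8, 34.6, 39.6, 43.8 and 38.3 CPM, and Pcdhga7 (37714834 to 37841873) 45.4, 42.5, 35.4, 33.9, 39.8 and 37.5 CPM. These 3 overlapped each other and Pcdhgb2, and culture 3 was low in all of them. Chosen after its values were seen, Pcdhga11 (37755773 to 37841873) was steadier, at 37.4 ± 1.87 CPM, with a coefficient of variation (SD over mean) of 5.00% against 11.1% for Pcdhga7. The level of the lowest member is part of both values. Above it the contrast was smaller, at 17.3 ± 2.19 CPM for Pcdhga11 and 18.9 ± 3.42 CPM for Pcdhga7. The gamma B member Pcdhgb6 had a lower coefficient of variation still, 4.08%.

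The lowest gamma A member was Pcdhga9 (37736936 to 37841863), with 24.1, 22.7, 21.3, 23.3, 25.4 and 23.1 CPM in cultures 1 to 6. The lowest gamma B member was Pcdhgb7 (37751619 to 37841870), with 26.6, 26.2, 23.7, 25.1, 28.1 and 26.2 CPM. Both were highest in culture 5, as Pcdhgc4 was. Above Pcdhgc4 and per kilobase of own exon, levels ran from 1.23 ± 0.364 CPM for Pcdhga9 to 9.25 ± 1.59 CPM for Pcdhgb2 (SD, n = 6). That all 18 gamma A and gamma B members exceeded Pcdhgc4 in all 6 cultures follows from its choice as the lowest member. In this order 4 of 20 neighbouring pairs did not overlap between cultures: Pcdhgc3 and Pcdhgb2, Pcdhgb5 and Pcdhga8, Pcdhga1 and Pcdhga9, and Pcdhgc5 and Pcdhgc4. The last pair was apart by construction, since Pcdhgc4 is 0 on this scale in every culture. Pcdhgc5 was as low as 0.018 CPM per kilobase there. Over all pairs of the 18 gamma A and gamma B members, 99 of 153 did not overlap, so the ends of the order were apart while most neighbours were not. Pcdhgb6 also exceeded its neighbour Pcdhgb4 in 6 of 6 cultures, although their ranges overlapped. The order had little relation to place along the cluster (Spearman's rho = -0.30 over the 18 gamma A and gamma B members, which share library and constant exons).

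**Figure D2:**
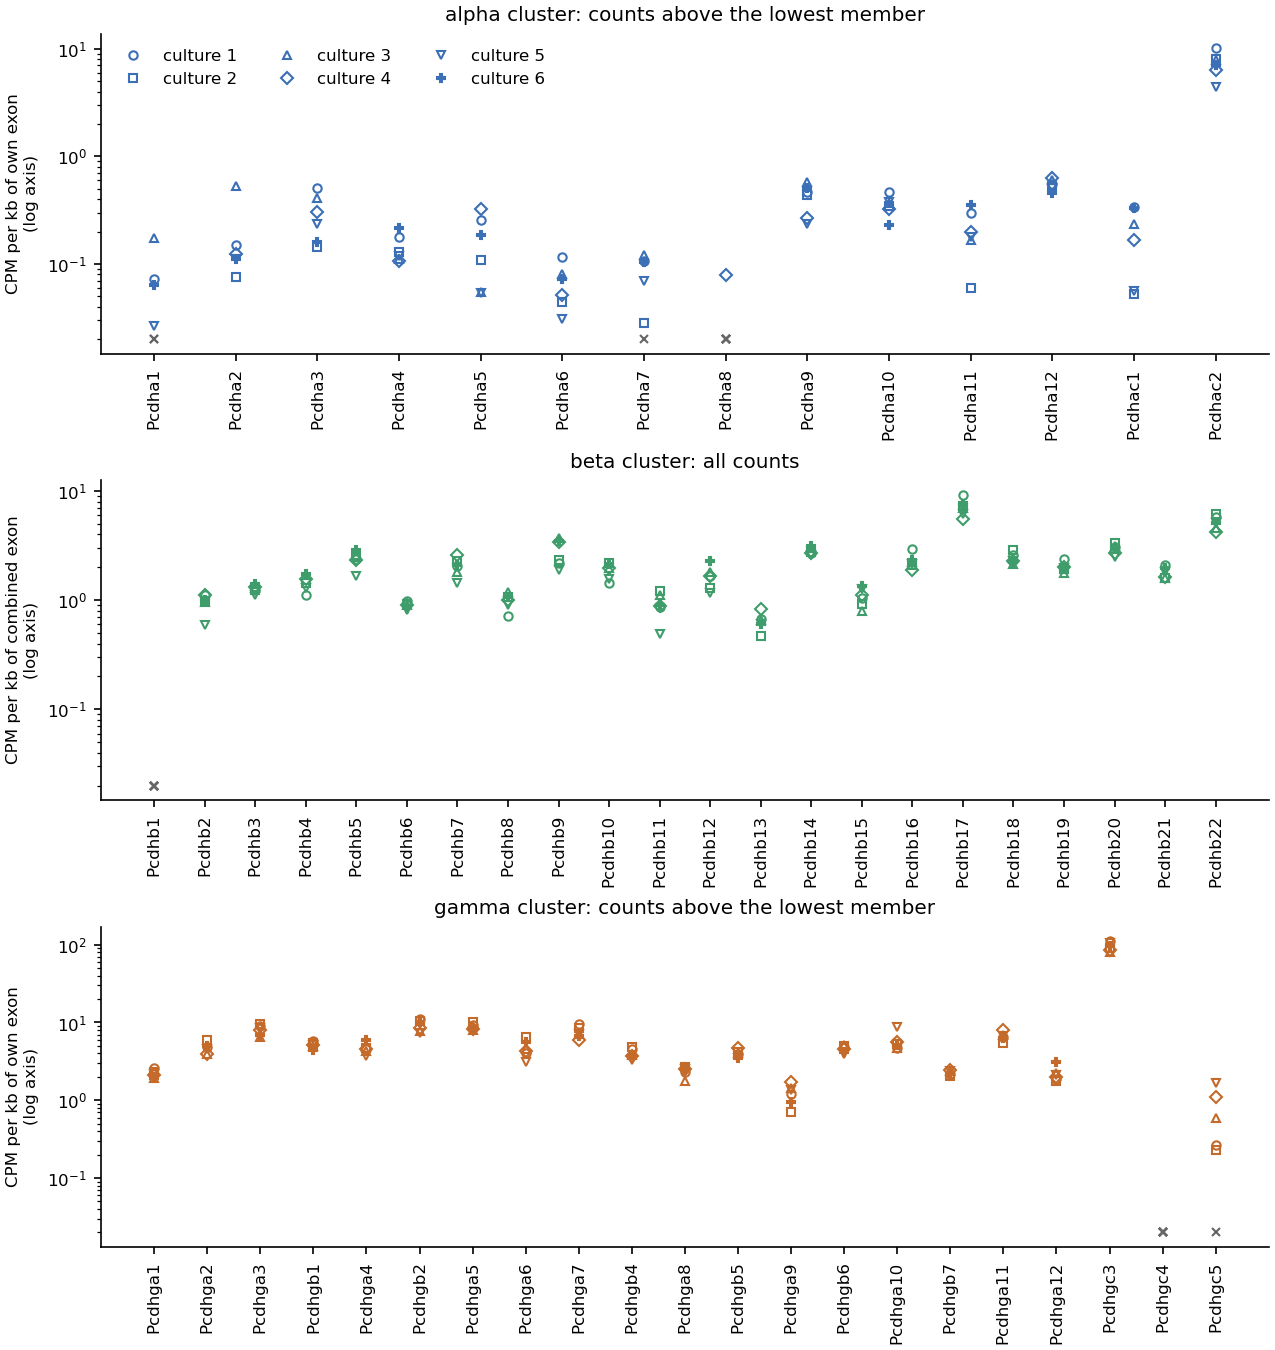
Levels per kilobase on a log axis, by culture: counts above the lowest member per kilobase of own exon for alpha and gamma, and all counts per kilobase of combined exon for beta. Crosses at the foot mark values too low for the axis, and Pcdhac2 and Pcdhgc3 lie above all other members of their clusters in every culture.

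In the alpha cluster, too, a C-type member was the highest, and it held most of the counts above the lowest member. Pcdhac2 (37143678 to 37187663) had 32.5, 25.8, 26.4, 21.1, 14.7 and 23.5 CPM in cultures 1 to 6. It was highest in culture 1 and lowest in culture 5, and no culture of any other alpha member reached its lowest value. Of the alpha counts above the lowest member, 75.4% ± 3.87 were those of Pcdhac2, with a range from 71.8% to 82.4%, and its share of alpha counts as deposited was 33.3% ± 2.67 (SD, n = 6 for each). Per kilobase of own exon it stood at 7.29 ± 1.90 CPM above the lowest member, 13.4 ± 3.60 times Pcdha12, the next one (SD, n = 6).

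The other 13 alpha members were low and close together. Pcdha12 (37020230 to 37187657) had 4.92, 4.40, 5.27, 4.33, 3.42 and 4.39 CPM in cultures 1 to 6, which made it the highest of them on average. Pcdha9 (36997880 to 37187657) had 4.75, 4.22, 5.26, 3.48, 2.79 and 4.56 CPM, and Pcdha10 (37005320 to 37187657) 4.72, 3.96, 4.70, 3.59, 3.11 and 3.85 CPM. The lowest, Pcdha8 (36992467 to 37187657), had 3.60, 3.13, 3.81, 3.01, 2.21 and 3.30 CPM. All 4 overlapped and were lowest in culture 5. The C-type member Pcdhac1 (37090136 to 37187657) averaged 3.63 ± 0.824 CPM, of which 0.481 ± 0.311 CPM lay above the lowest member (SD, n = 6). Above the lowest member, 1 of 13 neighbouring pairs did not overlap between cultures, namely Pcdhac2 and Pcdha12. Together the 12 members Pcdha1 to Pcdha12 had 6.23 ± 1.44 CPM above the lowest member, against 21.3 ± 5.62 CPM for the 2 C-type members. Among Pcdha1 to Pcdha12, 21 of 66 pairs did not overlap on that scale. Pcdha12, at 0.456 to 0.630 CPM per kilobase of own exon, lay above Pcdha5, at 0.0539 to 0.322, and overlapped Pcdha9, at 0.236 to 0.583.

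Beta members have no constant exons, so their counts can be read directly, apart from reads that match several of these similar genes. Pcdhb17 (37485021 to 37488290) was the highest, with 30.2, 23.9, 22.7, 18.3, 20.2 and 24.3 CPM in cultures 1 to 6. Pcdhb22 (37518353 to 37521419) had 17.9, 18.9, 14.1, 12.9, 15.5 and 15.4 CPM, and Pcdhb18 (37489465 to 37494503) 13.0, 14.6, 10.8, 11.6, 11.6 and 11.4 CPM. Per kilobase, Pcdhb17 reached 7.12 ± 1.26 CPM and Pcdhb22 5.14 ± 0.734 CPM (SD, n = 6). Their ranges over cultures overlapped, but within each of the 6 cultures Pcdhb17 was the higher, by 1.19 to 1.59 times.

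From the third beta member downward the levels fell in small steps. Pcdhb20 had 2.96 ± 0.303, Pcdhb9 2.84 ± 0.789 and Pcdhb14 2.82 ± 0.206 CPM per kilobase, and these 3 overlapped. The lowest member with counts was Pcdhb13 at 0.643 ± 0.120 CPM per kilobase, which Pcdhb17 exceeded 11.5 ± 3.11 times (SD, n = 6). Only 2 of 21 neighbouring pairs in the beta order did not overlap between cultures: Pcdhb22 and Pcdhb20, and Pcdhb13 and Pcdhb1. Neither leading gene had whole counts throughout, since 5 of 6 Pcdhb17 values and 4 of 6 Pcdhb22 values were fractional, and how those fractions arose was not tested. Pcdhb16, at 9.92 to 15.6 CPM, had whole counts in all 6 cultures.

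The beta members outside the leading 3 and the lowest were chosen for mention here and below after their values were seen. They fell between those named, from Pcdhb18 at 2.41 ± 0.273 and Pcdhb5 at 2.40 ± 0.416 CPM per kilobase down to Pcdhb11 at 0.910 ± 0.252 and Pcdhb6 at 0.892 ± 0.0574 CPM per kilobase. Pcdhb11 was low in culture 5, at 1.76 CPM, against 3.13 to 4.36 CPM in the others. Pcdhb12 was high in culture 6, at 6.88 CPM, against 3.53 to 5.53 CPM in the others. Pcdhb15 had its highest values in cultures 5 and 6, at 3.55 and 3.78 CPM, and 2.24 to 3.14 CPM elsewhere. Beta members thus did not share a single pattern over cultures, and 10 of the 21 with counts were lowest in culture 5.

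Beta levels were higher toward the downstream end of the cluster, next to the gamma genes. The 7 members from Pcdhb16 to Pcdhb22 had a median of 2.41 CPM per kilobase, from 1.79 to 7.12, and the 14 members from Pcdhb2 to Pcdhb15 a median of 1.37, from 0.643 to 2.84. The former held 55.0% ± 4.51 of beta counts (SD, n = 6), with a range from 49.8% to 61.1%. Spearman's rho between place in the cluster and level per kilobase was 0.57 over the 22 members, given as a description because the members share libraries and some reads. This division was chosen after the levels were seen.

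The next comparison was between replicate cultures. Scaled library sizes gave the expected counts for a chi-square test, which, with Benjamini-Hochberg adjustment over all genes tested, found variation beyond counting noise in 42 of 56 members, where 76.3% of 14998 genes passed. By cluster these were 11 of 14 alpha, 15 of 21 beta and 16 of 21 gamma members. The family as a whole was thus near the background. Pcdhgc3 (adjusted p = 1.57e-94) and Pcdhac2 (adjusted p = 2.50e-33) had the smallest values of the gamma and alpha members by this chi-square test. Such p-values depend on the count level as well as the relative spread, and both were the most abundant members of their clusters. They were not the most variable by coefficient of variation. Pcdhgc3 had 11.8%, below Pcdhga10 at 14.1% and below the median of 12.1% over all genes tested. Pcdhac2 had 24.7%, and Pcdha2 slightly more.

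The relative spread depends on the count level, and no test between clusters was run. The median coefficient of variation was 19.8% for alpha, 16.3% for beta and 7.81% for gamma members, and 12.1% over all genes tested. Counting noise alone is relatively larger at low counts. Those of the low alpha member Pcdha8 were 46.2 to 82.7, and those of the lowest gamma member, Pcdhgc4, 378 to 481. Pcdhb9 had the largest value, 27.8%, with 6.70, 7.20, 11.4, 10.5, 5.71 and 10.6 CPM in cultures 1 to 6, high in cultures 3, 4 and 6. Pcdhb6 and Pcdhb14 varied little, at 6.43% and 7.32%, and neither varied beyond counting noise (chi-square, adjusted p = 0.900 and 0.388). Members of a cluster that share a divided part are not independent of each other, and a divided part carries less counting noise than whole reads.

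Without culture 5 the number of alpha members varying beyond counting noise was 2 of 14, where 66.9% of all genes passed, and after removal of the lowest member's level it was 1 of the 4 alpha members that still passed the low-count filter, where 76.2% of all genes passed. For the whole family the number was 28 of 56 without culture 5, below that share of 66.9%. Against genes of similar abundance, edgeR's quasi-likelihood fit found 0 members at an adjusted p under 0.05 and 0 at an unadjusted p under 0.05, with 0 and 809 of all 14998 genes (0.0% and 5.39%). DESeq2 marked 0 members among its 512 dispersion outliers. These zeros do not show that the members varied alike.

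All 14 alpha members had their lowest CPM in culture 5, and 18 of 21 gamma members had theirs in culture 3. Over all genes tested, 26.2% were lowest in culture 5 and 7.84% in culture 3. Of the members above the lowest one in all cultures, however, 4 of 12 alpha members had their lowest remaining level in culture 5 and 5 in culture 2, and 6 of 20 gamma members had theirs in culture 3 and 6 in culture 5. Summed by cluster, alpha had 88.0, 71.4, 84.5, 64.1, 48.3 and 73.3 CPM in cultures 1 to 6, beta 170.4, 164, 160, 153, 138 and 169 CPM, and gamma 963, 922, 787, 840.5, 954 and 907 CPM. Alpha and beta were thus lowest in culture 5, where gamma was close to its highest. Beside them the fibroblast list had 3344, 6095, 4462, 7525, 14203 and 4825 CPM, the glial lineage list 6268, 6258, 5876, 5330, 4404 and 5919 CPM and the neuron list 1974, 1304, 2392, 1639, 1093 and 1800 CPM. Culture 5 was highest for fibroblast and lowest for glial and neuronal markers, and culture 3 was highest for neuronal markers.

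**Figure D3:**
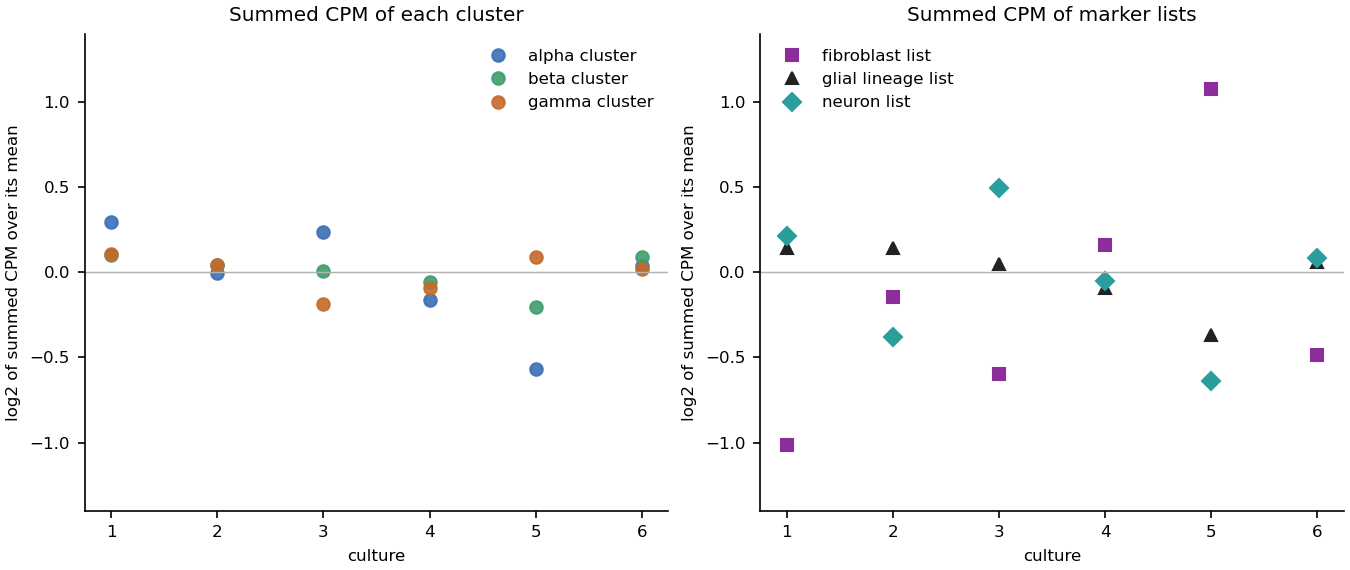
Summed CPM of each protocadherin cluster (left) and of 3 marker lists (right) in cultures 1 to 6, as log2 of the value over its mean. The alpha cluster is lowest in culture 5, at 48.3 CPM, where the fibroblast list is highest, at 14203 CPM.

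Each gene was then set against the summed level of each marker list across the 6 cultures. Over 3 lists and 14998 genes, 0 relations passed adjustment (0.0% for each list, smallest adjusted p = 0.116, exact permutation over 720 pairings). With 720 pairings no exact permutation p can fall below 0.00139. After adjustment over all genes and lists, a pass would need very many relations at or near that value. The 0 therefore says little, and the following values passed no threshold and describe these cultures. With the fibroblast list, r was below 0 for 14 of 14 alpha members (49.9% of all genes), and 13 of these had an unadjusted exact permutation p under 0.05 in that direction (7.99% of all genes). Gamma members had r above 0 in 14 of 21 cases (50.1% of all genes), and in 8 of 20 after removal of the level of Pcdhgc4. The median r was -0.95 for alpha, -0.44 for beta and 0.20 for gamma members. Without cultures 1 and 5, those farthest from the median fibroblast level, the alpha median was -0.90 and all 14 stayed below 0.

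The alpha values may not be independent, since any shared part enters all of them. After removal of the lowest member's level, which was tried once the values had been seen, 12 alpha members had counts in all cultures, of which 12 had r below 0 and 3 an unadjusted p under 0.05 by the exact permutation test. The median r was then -0.47 for alpha and -0.12 for gamma members. Pcdhac2, which rests least on the common part, had r = -0.96 (exact permutation p = 0.00417, adjusted 0.151) and rho = -0.94 (exact permutation p = 0.0167, adjusted 0.243) with the fibroblast list. Without cultures 1 and 5 its r was -0.69, and after removal of the lowest member's level -0.95.

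With the neuron list, r was above 0 for 14 of 14 alpha members (53.9% of all genes), and 13 of them had an unadjusted exact permutation p under 0.05 (7.83% of all genes). Pcdhac2 was the exception, at r = 0.71 (exact permutation p = 0.113, adjusted 0.383) and rho = 0.77 (p = 0.103, adjusted 0.435). After removal of the lowest member's level, 12 of 12 had r above 0, with a median of 0.65, and 1 had an unadjusted exact permutation p under 0.05. Without cultures 3 and 5 the alpha median of the deposited levels went from 0.90 to 0.63 and all 14 stayed above 0. With the glial lineage list, r was also above 0 for 14 of 14 (47.7% of all genes), and 10 had an unadjusted exact permutation p under 0.05 (7.65% of all genes). After removal of the lowest member's level these numbers were 11 of 12 and 2, with a median r of 0.29 in place of 0.83. Without cultures 4 and 5, 2 of 14 stayed above 0, so for the other 12 the direction rests on those cultures. Pcdhac2 was among the 2: its r with the glial lineage list was 0.95 (exact permutation p = 0.00972, adjusted 0.185) and its rho 0.83 (p = 0.0583, adjusted 0.370), and r was 0.63 without cultures 4 and 5 and 0.95 after removal of the lowest member's level. Which of the cell classes holds the alpha transcripts was not tested.

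Gamma members had r below 0 with the neuron list in 21 of 21 cases (46.1% of all genes), with a median of -0.60, and 3 of them had an unadjusted exact permutation p under 0.05 (3.67% of all genes). After removal of the level of Pcdhgc4 the count was 9 of 20, and without cultures 3 and 5 it was 11 of 21, so the common direction was not kept under either alternative. With the glial lineage list 13 of 21 had r below 0 (52.3% of all genes), but 9 of 21 with TMM-scaled levels. Pcdhgc3 itself had r = 0.11 with the fibroblast list (exact permutation p = 0.853, adjusted 0.936), r = -0.19 with the glial lineage list (p = 0.767, adjusted 0.894) and r = -0.43 with the neuron list (p = 0.396, adjusted 0.658). The matching rho values were -0.086 (p = 0.919, adjusted 0.976), 0.31 (p = 0.564, adjusted 0.815) and -0.26 (p = 0.658, adjusted 0.865). Without the 2 cultures farthest from the median level of each list, r was 0.039, 0.64 and 0.63.

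Pcdhga10 (37747016 to 37841870), a member singled out after its values were seen, was high in culture 5. It had 33.2, 34.5, 29.8, 33.2, 44.3 and 33.9 CPM in cultures 1 to 6, so culture 5 was the highest by a wide step. Pcdhgc5 was also highest in culture 5, at 26.2 CPM against 19.1 to 21.7 CPM in the others. With the fibroblast list the r of Pcdhga10 was 0.83 (exact permutation p = 0.0556, adjusted 0.293) and rho 0.77 (p = 0.103, adjusted 0.435). Its r was 0.94 after removal of the level of Pcdhgc4 and 0.53 without cultures 1 and 5. A stronger relation was with the neuron list, at r = -0.885 (exact permutation p = 0.00417, adjusted 0.151) and rho = -0.94 (p = 0.0167, adjusted 0.243). There r was -0.83 after that removal and -0.77 without cultures 3 and 5. With the glial lineage list r was -0.79 (exact permutation p = 0.118, adjusted 0.390) and -0.93 after that removal. However, rho was -0.31 (p = 0.564, adjusted 0.815) and r 0.61 without cultures 4 and 5. By median r of the deposited levels, beta members lay between the other clusters for each list. After removal of the lowest member's level this did not hold for the glial lineage list. The medians there were 0.29 for alpha, 0.45 for beta and 0.21 for gamma members. The highest beta member, Pcdhb17, had r = -0.76 with the fibroblast list (exact permutation p = 0.0819, adjusted 0.338) and rho = -0.77 (p = 0.103, adjusted 0.435). Without cultures 1 and 5 its r was -0.75.

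**Figure D4:**
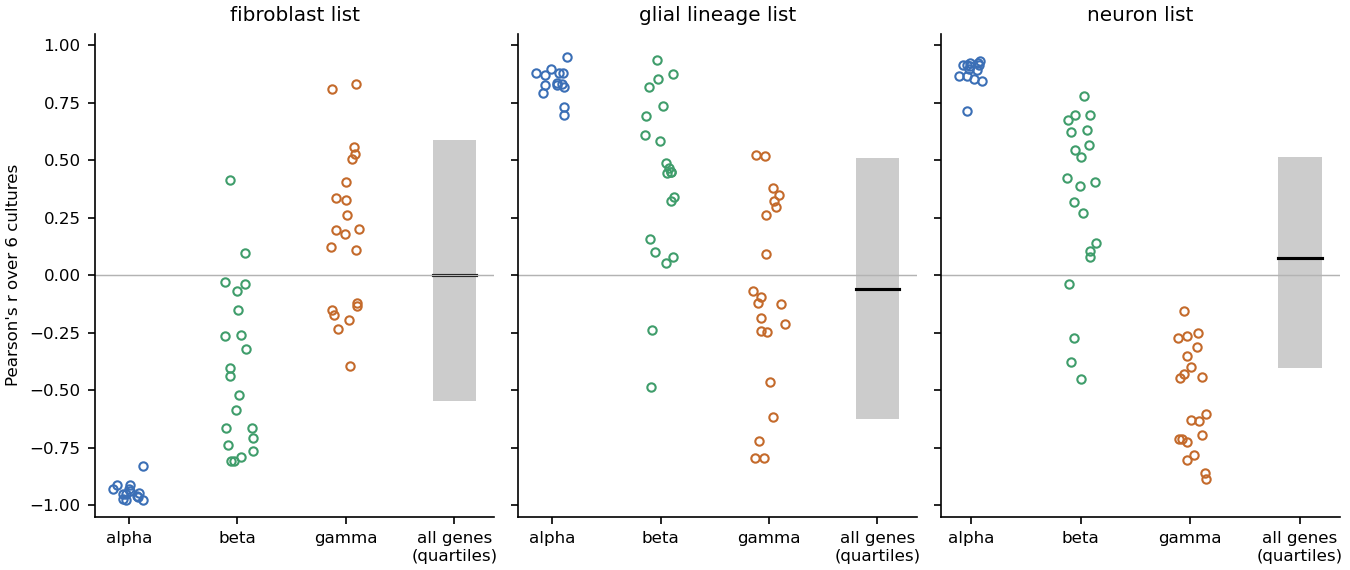
Pearson's r over 6 cultures between the log2 level of each member (1 point each) and the summed level of 3 marker lists, with the quartiles (grey) and median (line) of all 14998 genes tested. All alpha points lie below 0 for the fibroblast list and above 0 for the neuron list, with medians of -0.95 and 0.90.

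Genes that act with the clustered protocadherins were given by lists. CTCF and cohesin, with its loaders and release factors, loop a distant enhancer to the chosen promoter, and all 11 genes of that list reached 1 CPM in all cultures. They ranged from Stag1, a cohesin subunit, at 3.88 ± 0.329 CPM per kilobase to Rad21, another subunit, at 57.0 ± 4.19 CPM per kilobase (SD, n = 6). By the chi-square test 10 of 11 varied beyond counting noise, where 76.3% of all genes did, with a median coefficient of variation of 6.67% against 12.1% over all genes. For the lists below the same background of 76.3% applies. Of 8 genes of silencing and DNA methylation, all 8 were detected and all 8 varied beyond counting noise. The lowest was Dnmt3b, a de novo DNA methyltransferase, at 0.419 ± 0.119 CPM per kilobase, and the highest Trim28, a corepressor, at 57.7 ± 7.87 CPM per kilobase.

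Cytoplasmic partners, among them focal adhesion kinases and the WAVE complex of actin regulation, were all 13 detected, from Ptk2b, a kinase of the focal adhesion kinase family, at 2.20 ± 0.853 to Marcks, a membrane and actin binding protein, at 141 ± 14.3 CPM per kilobase. Of these, 10 of 13 varied beyond counting noise, close to the 76.3% of all genes, as did 4 of 6 genes of the proteases that cleave protocadherins at the surface and in the membrane. Among the latter Adam10, the surface protease, was highest at 223 ± 37.8 CPM per kilobase and Psen2, a presenilin, lowest at 8.63 ± 1.01 CPM per kilobase (SD, n = 6 for each).

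Non-clustered protocadherins, single genes elsewhere in the genome or outside these clusters, spanned a wider range. Pcdh1 was highest, at 60.5 ± 7.75 CPM per kilobase, beside 56.6 ± 6.70 for Pcdhgc3 by combined exon length. These values do not order the 2 genes, because the length of Pcdhgc3 includes 2116 constant bases shared by the gamma members. Per kilobase of own exon, Pcdhgc3 stood at 95.3 ± 11.7 CPM above the lowest gamma member. Pcdh12 was lowest, at 0.104 ± 0.114 CPM per kilobase, and did not pass the low-count filter. All 10 tested varied beyond counting noise (76.3% of all genes), with a median coefficient of variation of 21.4% against 12.1% over all genes. Pcdh19, chosen after its values were seen, went from 2.92 CPM in culture 1 to 88.9 CPM in culture 5, with 21.5, 23.2, 42.7 and 22.2 CPM in cultures 2, 3, 4 and 6.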

How the data were processed

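The authors deposited a table of estimated counts per gene, unscaled and partly fractional, with 1 column per culture and 0 further per-sample columns. STAR 2.7.2b, featureCounts 1.6.4, cutadapt 2.5 and the build GRCm38.p6 are named in the submitters' processing notes; per the labels' protocols, libraries were stranded and poly-A selected. Strand setting and treatment of shared reads are not given in the sources used here. Combined exon lengths are from the deposited table. All 57 members matched RefSeq by gene ID with identical ends.

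CPM used library totals. For tests, counts were rounded, filtered with edgeR 4.0.16 filterByExpr, scaled by TMM (factors 0.977 to 1.02) and, as an alternative, by DESeq2 1.42.0 size factors (R 4.3.3). Relations used log2(CPM + 0.5) and exact permutation, adjusted over all genes and 3 lists. Own exon length was combined length less the constant bases (2860 alpha, 2116 gamma). The chi-square and exact permutation tests were required to recover changes set in simulated data. No such requirement was made of the quasi-likelihood fit. Members, lists and tests were chosen with earlier results of these data known. Named members were, by mean CPM, the top 3 and the lowest of alpha, beta, gamma A and gamma B, and all C-type members, and in other lists the highest and lowest gene; members named outside this rule were picked after their values were seen.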

Additional observations from a re-analysis of the deposited data

Results flagged for a closer look

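In 62 measures of the family (56 members with counts, 3 cluster sums, the family sum and the shares of Pcdhac2 and Pcdhgc3), Dixon's ratio was computed, which sets the gap from the most extreme culture to the next one against the range over all 6. At the 95% critical value, chance marks about 1 in 20 measures, or 3.1 here, and 3 were found. All 3 were in culture 5. Pcdhb2 was low there, at 1.65 CPM against 2.68 to 3.09 in the others (ratio 0.713). Pcdhga10 was high, at 44.3 CPM against 29.8 to 34.5 (ratio 0.672). Pcdhgc5 was high, at 26.2 CPM against 19.1 to 21.7 (ratio 0.632).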

How the results depend on the processing

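No paired analysis was possible because all cultures belonged to 1 group. Of the alternative values for results that answer a comparison, 100 stayed within 1.5 times the count or 1 SD of the value and 8 did not. This tally does not measure robustness, because part of the 100 could not have moved. Leaving out a single culture cannot shift a mean over these cultures by 1 SD. Removal of the lowest member's level leaves beta unchanged, since Pcdhb1 had 0 counts. The 100 include 28 of 56 members varying beyond counting noise without culture 5 and 32 of 44 after removal of the lowest member's level, in place of 42. Among those 100 are also the members related to a marker list after adjustment and those found by the quasi-likelihood fit, 0 in every setting. The number of alpha members varying beyond counting noise, 11, was 2 to 13 when single cultures were left out (2 without culture 5) and 1 after removal of the lowest member's level, where 4 were tested. That removal lowered summed CPM to 27.6 for alpha and 473 for gamma and left 42 members at 1 CPM. With a tolerance of 0.05 in place of 0.005, 88.1% of alpha and 97.6% of gamma values were fractional. As shares of the deposited counts, tried once the values had been seen, Pcdhac2 held 33.3% and Pcdhgc3 29.5%. Reversal of relations was tallied here only for Pcdhac2, Pcdhb17 and Pcdhgc3, and of these only Pcdhgc3 had reversed values. Its rho was -0.086 with the fibroblast and 0.31 with the glial lineage list. Its r without 2 cultures was 0.64 with the glial lineage and 0.63 with the neuron list. Other members reversed too. Without 2 cultures, 2 of 14 alpha members kept their sign with the glial lineage list and 11 of 21 gamma members with the neuron list. The cause was not tested.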

Other observations

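The gamma cluster also holds Pcdhgb8, which the deposited table classes as a transcribed pseudogene and which was therefore no member. It had 158 to 204 counts per culture, below Pcdhgc4 in every culture, and 8.49 ± 0.665 CPM (SD, n = 6). Its combined exon length was 3234 bases.

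Markers of other cell classes were present at lower levels. The 8 macrophage markers summed to 15.6, 28.6, 117, 135, 163 and 41.9 CPM in cultures 1 to 6, the 8 endothelial markers to 13.5, 22.4, 27.3, 42.9, 133 and 28.7 CPM and the 7 mural markers to 88.1, 338, 743, 778, 1529 and 799 CPM. Culture 1 was lowest and culture 5 highest in all 3 lists. Of these markers, 5 of 8, 3 of 8 and 5 of 7 reached 1 CPM in all cultures. Their part in the protocadherin levels was not tested.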
